A study of Mus musculus with 6 samples.

Results

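The miR-17-92 cluster is a polycistronic microRNA gene, and the 10 mature miRNAs described here are the products that come from it and from no other annotated mouse locus. They are mmu-miR-17-5p, mmu-miR-17-3p, mmu-miR-18a-5p, mmu-miR-18a-3p, mmu-miR-19a-5p, mmu-miR-19a-3p, mmu-miR-20a-5p, mmu-miR-20a-3p, mmu-miR-19b-1-5p and mmu-miR-92a-1-5p. They were taken by name from a table of 1907 mature mouse miRNAs by their place of origin, a rule that uses no measured value, though the cluster was picked with earlier results of these data known. The other products of the cluster, mmu-miR-19b-3p and mmu-miR-92a-3p, are also made by a paralogous cluster on the X chromosome, so their reads cannot be assigned to either locus and they were kept apart.

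Small RNA was sequenced from embryonic stem cells (ESCs) of the lines RB18 and RB20, both derived from C57BL/6 mice in R2i medium and then either kept there or moved to 2i or serum medium and passaged at least 10 times, without feeder cells. The cytokine LIF was present in every medium at 1000 U/ml, and serum medium was made with 15% fetal bovine serum. Both other media were free of serum and blocked MEK with PD0325901 at 1 µM, to which 2i added CHIR99021 at 3 µM against GSK3, and R2i added SB431542 at 10 µM against the TGF-β receptor. Cells in 2i and R2i are called ground state, and the comparisons ask whether the cluster is expressed differently in ground-state and serum-grown cells. Each of the 6 libraries, 1 per line and medium, came from a pool of 3 cultures, so the 2 libraries of a medium differ by line and by pool at once.

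A polycistronic primary transcript is cut in the nucleus by the Microprocessor (Drosha with DGCR8) into hairpins, which Dicer trims to duplexes of a 5p and a 3p strand. One strand is loaded into an Argonaute protein, and its seed near the 5′ end pairs with target mRNAs and lowers their output. The miR-17-92 gene is transcribed under Myc and E2F factors, is amplified in lymphomas, and is known for promoting proliferation and survival. Its miR-17 and miR-20a products target the cell cycle inhibitor p21 and the pro-apoptotic protein Bim. In ESCs and the early embryo it is expressed together with its paralogs miR-106a-363 and miR-106b-25. The first of these shares most of its seeds, and miR-106b-25 shares those of miR-17-5p and miR-92a-3p.

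Mature sequences were found in RefSeq (GRCm38.p6) for 9 of the 10 members, the exception being mmu-miR-19a-5p. They are shown because the seed, bases 2 to 8 in capitals, decides which members act on the same targets. The miR-17 seed AAAGUGC is carried by 2 members and by 4 paralogs with counts:
mmu-miR-17-5p: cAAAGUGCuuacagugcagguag
mmu-miR-20a-5p: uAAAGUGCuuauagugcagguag
mmu-miR-106a-5p: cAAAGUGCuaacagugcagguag
mmu-miR-20b-5p: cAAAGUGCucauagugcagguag
mmu-miR-106b-5p: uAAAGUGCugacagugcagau
mmu-miR-93-5p: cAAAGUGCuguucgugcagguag

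The miR-18 seed joins 1 member to mmu-miR-18b-5p, which comes from the X chromosome only, and the miR-19 seed joins 1 member to the shared mmu-miR-19b-3p:
mmu-miR-18a-5p: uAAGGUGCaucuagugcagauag
mmu-miR-18b-5p: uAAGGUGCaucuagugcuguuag
mmu-miR-19a-3p: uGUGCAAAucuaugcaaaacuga
mmu-miR-19b-3p: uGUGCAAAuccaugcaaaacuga

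The remaining members are the other strands of the hairpins. The seeds of mmu-miR-20a-3p and mmu-miR-92a-1-5p are found in no other listed miRNA, while mmu-miR-17-3p shares its seed with mmu-miR-106a-3p and mmu-miR-20b-3p, mmu-miR-18a-3p with mmu-miR-7069-3p, and mmu-miR-19b-1-5p with mmu-miR-19b-2-5p. They are shown with the shared mmu-miR-92a-3p because they report on the same hairpins as the better known strands:
mmu-miR-17-3p: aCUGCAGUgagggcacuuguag
mmu-miR-18a-3p: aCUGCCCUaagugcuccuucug
mmu-miR-20a-3p: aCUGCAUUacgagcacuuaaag
mmu-miR-19b-1-5p: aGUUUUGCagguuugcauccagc
mmu-miR-92a-1-5p: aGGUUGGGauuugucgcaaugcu
mmu-miR-92a-3p: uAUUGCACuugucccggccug

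The 6 hairpins lie in the order Mir17, Mir18, Mir19a, Mir20a, Mir19b-1 and Mir92-1 within 836 bases of the plus strand of chromosome 14, chr14:115043671-115044506 (GRCm38). All of them lie in exon 2 of the non-coding host gene Mir17hg (GENCODE M21, chr14:115042879-115046727). The Mir17 hairpin, chr14:115043671-115043754, shows how a 5p and a 3p member face each other in the stem, with the mature strands in capitals:
Mir17: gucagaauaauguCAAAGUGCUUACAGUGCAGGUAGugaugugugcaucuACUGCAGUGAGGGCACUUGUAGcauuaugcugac

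Some members differ from a miRNA of another locus by so few bases that the assignment of reads matters. Counted from 1 at the 5′ end, with the member's base first, mmu-miR-17-5p differs from mmu-miR-106a-5p by U10A alone, and mmu-miR-19a-3p differs from mmu-miR-19b-3p by U11C alone. The pairs mmu-miR-18a-5p and mmu-miR-18b-5p differ by A18U and A20U, and mmu-miR-20a-5p differs from mmu-miR-20b-5p by U1C and U10C. The difference of mmu-miR-17-5p from mmu-miR-20b-5p is U10C and C12U. The mismatch setting of the alignment is not given in the sources used here, so the split of reads within these pairs is uncertain. The other members shown had 3 or more differences from their nearest equal-length miRNA in the table. The shared mmu-miR-92a-3p was not compared in this way.

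Counts assigned to miRNAs ranged from 1041858 to 3593356 per library, and each RB18 library was smaller than its RB20 counterpart, so that line and depth cannot be told apart. The ESC markers of the miR-290 cluster took 34.4% to 35.0% of the counts in the RB18 libraries and 24.0% to 33.7% in RB20, the serum library of RB20 being the lowest. Markers of other cell types were detected unevenly. Of the blood markers, mmu-miR-142a-3p had 91 to 701 counts, mmu-miR-451a at most 66 and mmu-miR-223-3p 0 in every library. Of the muscle markers, mmu-miR-133a-3p, mmu-miR-1a-3p and mmu-miR-206-3p had at most 93, 55 and 3. Of the fibroblast markers, mmu-miR-143-3p had 2407 to 11069 counts, mmu-miR-145a-5p and mmu-miR-199a-3p at most 292 and 278, and mmu-miR-214-3p at most 6. In these bulk samples, fewer cells expressing a miRNA and less of it per cell cannot be told apart.

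All 10 members were detected in every library, the lowest count being 27, and all passed the filter on low counts that left 571 miRNAs for testing. Levels are given as TMM-normalised CPM, that is, counts scaled to a common total, with the library total corrected by a factor that lines up the bulk of the miRNAs. A mature miRNA gives 1 read per molecule sequenced, so the levels need no correction for length, but they compare reads and not molecules between miRNAs. With RB18 given before RB20 here and throughout, the members together held 0.805% and 0.900% of all serum counts. In 2i they held 0.644% and 0.630%, and in R2i 0.967% and 0.748%. The 95% exact binomial intervals of these shares, which cover counting error only, ran from 0.792% to 0.818% for serum RB18, from 0.633% to 0.655% for 2i RB18 and from 0.948% to 0.986% for R2i RB18. Both 2i libraries lay below all others, whereas the R2i libraries lay on either side of the serum libraries. On the normalised scale, where the members summed to 7687 and 10004 CPM in serum and 6439 and 6473 CPM in 2i, both R2i sums (8638 and 7693 CPM) lay within the range of serum.

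The levels fell into tiers. The highest held mmu-miR-92a-1-5p at a mean of 2084 CPM over the media, mmu-miR-17-5p at 2053 CPM and mmu-miR-20a-5p at 1874 CPM, which ranked 52, 53 and 59 among the 571 miRNAs tested and overlapped one another across the libraries. Next were mmu-miR-18a-5p at 682 CPM and mmu-miR-19a-3p at 659 CPM, which overlapped as well. Lower strands of the same hairpins followed, with mmu-miR-17-3p at 214 CPM, mmu-miR-20a-3p at 105.97 CPM and mmu-miR-18a-3p at 89.1 CPM, of which only mmu-miR-17-3p was apart from its neighbours in every library. The lowest were mmu-miR-19a-5p at 41.8 CPM and mmu-miR-19b-1-5p at 19.4 CPM, whose ranges over the libraries touched. At the top the order depended on the medium: mmu-miR-92a-1-5p was the highest member in both serum libraries, mmu-miR-17-5p in both 2i libraries, and mmu-miR-17-5p in RB18 but mmu-miR-92a-1-5p in RB20 of R2i.

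**Figure D1:**
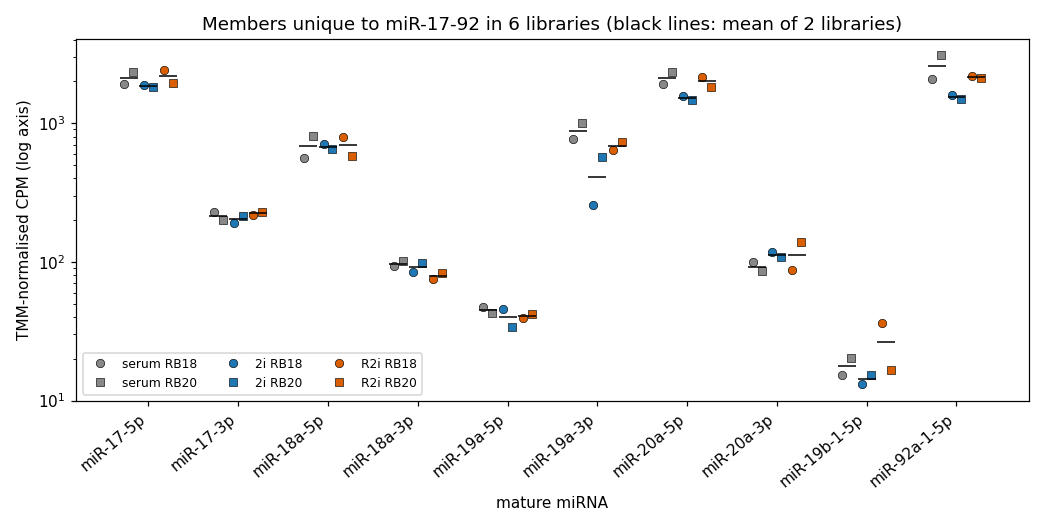
TMM-normalised CPM (log axis) of the 10 members in each library, with circles for RB18, squares for RB20, colours for the media and black lines for the mean of the 2 libraries of a medium. Most members lie in a narrow band over the 6 libraries, while mmu-miR-19a-3p is lowest in 2i RB18 at 257 CPM and mmu-miR-92a-1-5p is highest in serum RB20 at 3080 CPM.

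The members also differed in how far they varied over all 6 libraries. The highest level was 1.20 times the lowest for mmu-miR-17-3p and 1.32 times for mmu-miR-17-5p. It was between 1.36 and 1.62 times the lowest for mmu-miR-18a-3p, mmu-miR-19a-5p, mmu-miR-18a-5p, mmu-miR-20a-5p and mmu-miR-20a-3p. The members with the widest ranges were mmu-miR-92a-1-5p at 2.07 times, mmu-miR-19b-1-5p, the least counted member, at 2.75 times, and mmu-miR-19a-3p at 3.91 times.

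In 2i against serum, edgeR's quasi-likelihood test called 0 of the 10 members, where it called 34.2% of the 571 miRNAs. A call required a change of over 2-fold and a p below 0.01 after Benjamini-Hochberg adjustment over all 571. DESeq2 and limma also called 0 members, while edgeR with no filter on low counts called 1, mmu-miR-19a-3p. The share of all miRNAs called was not counted under these settings. At an unadjusted p under 0.05, 2 members passed, mmu-miR-19a-3p and mmu-miR-92a-1-5p, against 57.6% of all miRNAs. Both were lower in 2i, a direction in which 29.1% of all miRNAs passed. The fitted change was negative for 9 of the 10 members, against 51.1% of all miRNAs, and 1 of the 9 was mmu-miR-18a-5p at -0.003, which turned positive under DESeq2, limma, library totals, no filter or without the 5 most abundant miRNAs. The members had a median of -0.19 on the log2 scale against -0.03 over all miRNAs tested. They are cut from the same transcript, so their directions are not independent of one another.

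mmu-miR-19a-3p, the strand of the miR-19 family that is specific to this cluster, measured 762 and 1005 CPM in serum, 257 and 566 CPM in 2i, and 636 and 725 CPM in R2i. The 2i libraries lay below all others, and 2i RB18 stood far below 2i RB20. The change from serum to 2i was -1.10 on the log2 scale (SE 0.38, 95% interval from -1.98 to -0.22, edgeR adjusted p = 0.0426), with -1.57 in RB18 and -0.83 in RB20 taken alone. Without the 2i library of RB18 it was -0.60 (edgeR adjusted p = 0.22), and without that of RB20 it was -1.76 (edgeR adjusted p = 0.0113). In such fits 1 library stands for the medium and is assumed to vary like the other groups.

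mmu-miR-92a-1-5p, the partner strand of the abundant mmu-miR-92a-3p, measured 2079 and 3080 CPM in serum, 1587 and 1487 CPM in 2i, and 2176 and 2097 CPM in R2i. The 2i libraries were again the lowest, the serum library of RB20 was the highest, and R2i lay between the serum libraries. The change from serum to 2i was -0.75 (SE 0.26, interval from -1.34 to -0.15, edgeR adjusted p = 0.0419), with -0.39 in RB18 and -1.05 in RB20. Without the serum library of RB20 it was -0.49 (edgeR adjusted p = 0.0836). Without the 2i library of RB18 or RB20 it was -0.75 and -0.68, with edgeR adjusted p of 0.147 and 0.243, again with 1 library assumed to vary like the other groups.

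The miR-17-seed members did not pass either limit. mmu-miR-20a-5p measured 1904 and 2316 CPM in serum, 1560 and 1471 CPM in 2i, and 2162 and 1834 CPM in R2i. Its 2i libraries lay below the rest, but the fitted change of -0.48 from serum had an interval from -1.01 to 0.06 (edgeR adjusted p = 0.120). mmu-miR-17-5p measured 1903 and 2351 CPM in serum, 1882 and 1825 CPM in 2i, and 2410 and 1946 CPM in R2i. R2i overlapped serum, and 2i RB18 lay just under serum RB18. The fitted change from serum to 2i was -0.20 with an interval from -0.75 to 0.35.

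For mmu-miR-18a-5p, the levels were 556 and 802 CPM in serum, 701 and 654 CPM in 2i, and 798 and 583 CPM in R2i. The serum libraries of the 2 lines lay on either side of those in 2i, and the fitted change from serum to 2i was -0.003 with an interval from -0.65 to 0.65. The low-count strands mmu-miR-17-3p, mmu-miR-18a-3p and mmu-miR-19a-5p had fitted values of -0.08, -0.09 and -0.18, and mmu-miR-19b-1-5p of -0.32. mmu-miR-20a-3p had the only positive value, 0.28. Intervals lay wholly within 2-fold for 6 of the 10 members, and those of the other 4, mmu-miR-19a-3p, mmu-miR-20a-5p, mmu-miR-19b-1-5p and mmu-miR-92a-1-5p, reached beyond a 2-fold decrease, so a decrease of that size was not resolved for them.

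Some markers of other cell types moved with the same contrast. The fibroblast markers together held 0.149% and 0.177% of all serum counts. They held 0.327% and 0.346% of those in 2i and 0.256% and 0.228% of those in R2i. Most of these counts were mmu-miR-143-3p, at 2407 and 3787 in serum and 6408 and 11069 in 2i. mmu-miR-199a-3p had 58 and 92 counts in serum and 207 and 278 in 2i. In contrast, mmu-miR-145a-5p had 122 and 90 in serum and 111 and 292 in 2i, so it did not rise in RB18. mmu-miR-214-3p had 6 and 0 in serum and 0 in both 2i libraries. The muscle markers summed to 145 and 94 in serum, to 1 in each 2i library, and to 9 and 14 in R2i. The neural markers ranged from 0.0419% to 0.0788%, the blood markers from 0.00437% to 0.0353%, and the liver marker mmu-miR-122-5p from 0 to 7 counts. Their part in the values of the members was not tested.

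**Figure D2:**
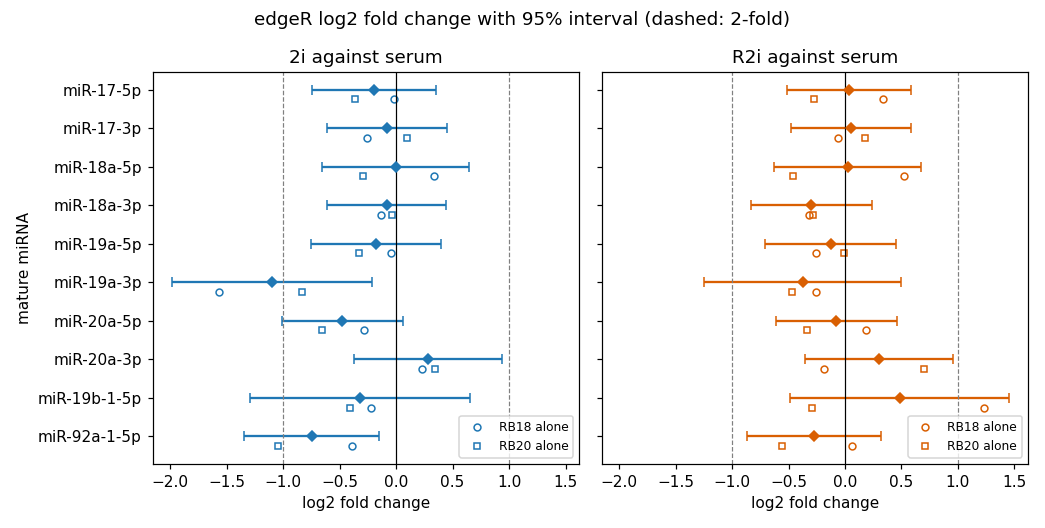
Log2 fold change of each member in 2i against serum (left) and R2i against serum (right), with filled diamonds for the edgeR estimate, bars for its 95% interval, open symbols for the difference within RB18 (circles) and RB20 (squares) alone, and dashed lines at 2-fold. Across both panels, the intervals of mmu-miR-19a-3p and mmu-miR-92a-1-5p in 2i are the only ones that leave out 0.

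In R2i against serum, again 0 of the 10 members were called by edgeR, DESeq2 or limma, where edgeR called 30.6% of all miRNAs. None of them had an unadjusted p under 0.05, against 49.6% of all miRNAs. The fitted values were split, 5 lower and 5 higher, with a median of -0.03 against -0.07 over all miRNAs. They ran from -0.38 for mmu-miR-19a-3p (interval from -1.25 to 0.50) to 0.48 for mmu-miR-19b-1-5p (interval from -0.49 to 1.45). For the remaining 8 members the whole interval lay within 2-fold, including 0.03 for mmu-miR-17-5p, 0.02 for mmu-miR-18a-5p, -0.08 for mmu-miR-20a-5p and -0.27 for mmu-miR-92a-1-5p. The last value was -0.0078 without serum RB20 and -0.42 without serum RB18.

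The value of mmu-miR-19b-1-5p rested on few reads and on 1 library. It was counted 28 and 41 times in the serum libraries, 27 and 50 times in 2i and 42 and 58 times in R2i, which gave 36.0 CPM in R2i RB18 and between 13.1 and 20.3 CPM in the other libraries. The change from serum to R2i was 1.23 in RB18 and -0.29 in RB20. mmu-miR-20a-3p was also split by line, at 99.7 and 85.3 CPM in serum and 87.5 and 138 CPM in R2i.

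The media that differ by GSK3 or TGF-β receptor inhibition were compared directly as R2i against 2i. No member was called by edgeR, DESeq2 or limma, and edgeR called 0.35% of all miRNAs. At an unadjusted p under 0.05, 0 members passed in edgeR, against 18.2% of all miRNAs. DESeq2 passed 2 members at that limit and limma 1, but the share of all miRNAs that they passed was not counted. The fitted value was higher in R2i for 9 members, where 50.8% of all miRNAs were lower, with a median of 0.18 against -0.01 over all miRNAs. It was 0.81 for mmu-miR-19b-1-5p, 0.73 for mmu-miR-19a-3p (interval from -0.15 to 1.60, edgeR adjusted p = 0.356), 0.48 for mmu-miR-92a-1-5p and 0.40 for mmu-miR-20a-5p. The positive values also included 0.016 for mmu-miR-20a-3p, 0.026 for mmu-miR-18a-5p and 0.053 for mmu-miR-19a-5p. All of these turned negative without 2i RB20, and those of mmu-miR-20a-3p and mmu-miR-18a-5p also with no filter on low counts. The value of mmu-miR-19a-3p was 0.25 without 2i RB18 and 1.40 without 2i RB20, that of mmu-miR-19b-1-5p was 0.18 without R2i RB18 and 1.32 without R2i RB20, and that of mmu-miR-20a-5p was 0.24 without R2i RB18. For 7 members the interval lay within 2-fold. The 2i libraries are the same as in 2i against serum, so the direction of the members here is not a separate observation.

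The change from serum to the ground state was also compared between the lines, with 2i and R2i taken as the 2 ground-state libraries of a line. Serum had 1 library per line, so the spread in this fit came from 2i against R2i within a line and not from replicates. No member was called for this interaction by edgeR, nor was any other miRNA (0%), and 0 members had an unadjusted p under 0.05, against 4.73% of all miRNAs. For mmu-miR-18a-5p, both ground-state media were above serum in RB18, by 0.34 and 0.52 on the log2 scale, and below it in RB20, at -0.29 and -0.46, but the difference of -0.81 had an SE of 0.43 and an adjusted p of 0.790. Of the intervals of the interaction, 0 of 10 lay within 2-fold, so a difference of that size between the lines was not resolved for any member.

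Arms of the same hairpin were compared within a library, where no scaling between libraries enters. The 5p strand prevailed for miR-17, with 8.30 and 11.7 reads per 3p read in serum, 9.82 and 8.48 in 2i, with 11.0 and 8.55 in R2i. For miR-18a the ratios were 5.96 and 7.91 in serum, 8.27 and 6.64 in 2i, with 10.6 and 7.02 in R2i. In both hairpins the media overlapped, and the ground state differed from serum by -0.07 and 0.22 on the log2 scale. For miR-18a this difference was 0.016 without serum RB18, 0.43 without serum RB20 and 0.085 without R2i RB18.

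For miR-20a the 5p strand prevailed more strongly, with 19.1 and 27.1 reads per 3p read in serum, 13.3 and 13.6 in 2i, with 24.6 and 13.3 in R2i. The 2i libraries and R2i RB20 lay together below serum, and R2i RB18 lay among the serum libraries, which gave a difference of -0.54 (exact two-sided permutation p = 0.267, adjusted p = 0.686 over the 9 ratios compared). It was -0.29 without serum RB20. The miR-19a hairpin was used the other way round, with the 3p strand prevailing. There were 0.0622 and 0.0426 reads of 5p per 3p read in serum, 0.179 and 0.0602 in 2i, with 0.0626 and 0.0585 in R2i, so that 2i RB18 alone departed. The difference between ground state and serum was 0.62, and 0.23 without 2i RB18 or 0.35 without serum RB20. In 2i RB18 the level of mmu-miR-19a-3p was low, while mmu-miR-19a-5p was at 45.7 CPM there and between 33.9 and 47.1 CPM elsewhere. With 4 ground-state and 2 serum libraries the permutation test cannot give a p below 0.133, so no ratio could pass 0.05.

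**Figure D3:**
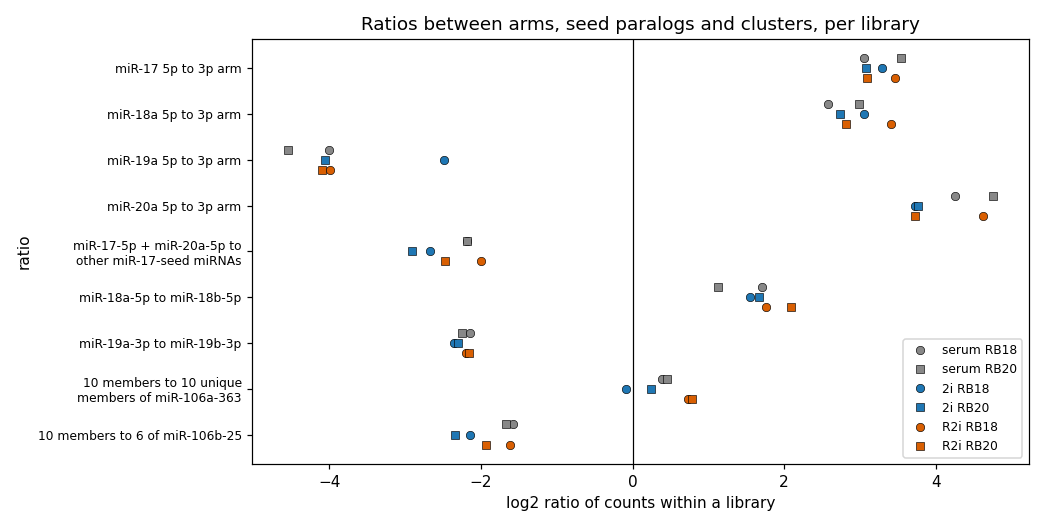
Log2 ratio of counts within each library for the arms of 4 hairpins, for members against paralogs of the same seed and for the summed members against the paralogous clusters, with grey, blue and orange symbols for serum, 2i and R2i, circles for RB18 and squares for RB20. The 5p to 3p ratio of miR-19a stands out in 2i RB18 at -2.49. The ratio to the summed miR-106a-363 members, of which mmu-miR-363-3p was the most counted, is highest in the R2i libraries.

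The composition of the cluster's reads followed these levels. The 3 most counted members, mmu-miR-17-5p, mmu-miR-20a-5p and mmu-miR-92a-1-5p, together made up between 73.9% and 78.1% of the members' reads in a library. mmu-miR-92a-1-5p gave 27.0% and 30.8% of them in serum, 24.6% and 23.0% in 2i, with 25.2% and 27.3% in R2i. mmu-miR-17-5p gave 24.8% and 23.5% in serum, 29.2% and 28.2% in 2i, with 27.9% and 25.3% in R2i. The share of mmu-miR-17-5p was thus highest in 2i, where that of mmu-miR-92a-1-5p was lowest, and shares within a sum are tied to one another. mmu-miR-20a-5p stayed between 22.73% and 25.025% throughout, and mmu-miR-19a-3p gave between 7.37% and 10.1% in all libraries but 2i RB18, where it gave 3.99% (95% Wilson interval for counting error from 3.67% to 4.34%).

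**Figure D4:**
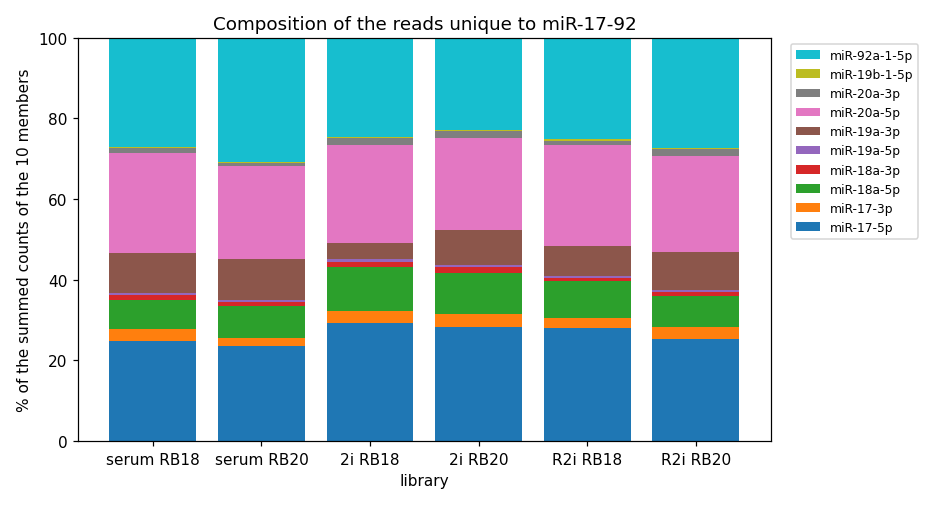
Share of each member in the summed counts of the 10 members, in percent, as stacked bars that reach 100 in each of the 6 libraries. mmu-miR-17-5p (bottom), mmu-miR-20a-5p (pink) and mmu-miR-92a-1-5p (top) fill most of every bar, and the band of mmu-miR-19a-3p (brown) narrows to 3.99% in 2i RB18.

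Within the seed families, the members were a minor part of the miR-17-seed reads and the major part of the miR-18-seed reads. mmu-miR-17-5p and mmu-miR-20a-5p together gave 17.996% and 18.05% of the reads with the miR-17 seed in serum, 13.6% and 11.8% in 2i, with 19.96% and 15.2% in R2i. Most reads with this seed were mmu-miR-93-5p of the miR-106b-25 cluster, at 63.4% to 76.6%, while mmu-miR-6383, which carries it too, had 0 counts. The ratio of the 2 members to the other miR-17-seed miRNAs was lowest in both 2i libraries, and the ground state differed from serum by -0.33 on the log2 scale (exact two-sided permutation p = 0.400, adjusted p = 0.686). It was -0.20 without 2i RB20 and -0.50 without R2i RB18. mmu-miR-18a-5p made up 76.6% and 68.6% of the miR-18-seed reads in serum, 74.5% and 76.1% in 2i, with 77.2% and 81.0% in R2i. The R2i libraries were the highest, and its ratio to mmu-miR-18b-5p differed by 0.35 on the log2 scale between ground state and serum (exact two-sided permutation p = 0.400, adjusted p = 0.686). That difference was 0.64 without serum RB18 and 0.058 without serum RB20.

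The miR-19 seed gave the steadiest ratio. mmu-miR-19a-3p made up 18.4% and 17.3% of the miR-19-seed reads in serum, 16.3% and 16.8% in 2i, with 17.8% and 18.3% in R2i, the rest being mmu-miR-19b-3p. Its level varied 3.91-fold over the libraries and that of mmu-miR-19b-3p 3.64-fold, and the ratio between them differed by only -0.06 on the log2 scale between ground state and serum (exact two-sided permutation p = 0.533, adjusted p = 0.686). The low level in 2i RB18 was seen for both, at 257 CPM for mmu-miR-19a-3p and 1319 CPM for mmu-miR-19b-3p against 566 and 2793 CPM in 2i RB20. These miRNAs differ by 1 base, so the reads that make up this ratio are among those whose assignment is uncertain.

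The shared products are given for the same hairpins. mmu-miR-92a-3p, ranked 3 by level among the miRNAs tested, measured 85647 and 162397 CPM in serum, 43661 and 44085 CPM in 2i, and 63085 and 58684 CPM in R2i. Its serum libraries lay above all others, and it was called lower in 2i at -1.50 (edgeR adjusted p = 0.00531) but not in R2i at -1.03 (edgeR adjusted p = 0.0309). mmu-miR-19b-3p was not called in 2i at -0.99 (edgeR adjusted p = 0.0568) or in R2i at -0.40. The reads of both hold the output of the X-linked cluster as well.

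The paralogous clusters were set beside it. Of the 10 unique members of miR-106a-363, 1 was called in 2i against serum, mmu-miR-92a-2-5p at -1.92 (edgeR adjusted p = 0.00385), and 0 in R2i, where 34.2% and 30.6% of all miRNAs were called, with medians of -0.43 and -0.62. Of the 6 members of miR-106b-25, 0 were called in either medium, with medians of 0.16 and 0.07. The members of miR-17-92 gave 1.31 and 1.37 reads per read of the miR-106a-363 members in serum, 0.943 and 1.18 in 2i, with 1.66 and 1.72 in R2i. For this sum the 3 media did not overlap, with 2i lowest and R2i highest. The mean over both ground-state media differed from serum by -0.01 on the log2 scale (exact two-sided permutation p = 1.0). The most counted of the miR-106a-363 members was mmu-miR-363-3p, at 2617 and 2843 CPM in serum, 4211 and 3373 CPM in 2i and 2300 and 2540 CPM in R2i. Its fitted change in 2i was 0.47, against the cluster's median of -0.43. The ratio without mmu-miR-363-3p was not tested, so the order of the media describes the sum and not each member.

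Relative to miR-106b-25 there were 0.334 and 0.313 reads in serum, 0.226 and 0.198 in 2i, with 0.327 and 0.262 in R2i. The 2i libraries were the lowest and R2i RB18 lay between the serum libraries. The ground state differed from serum by -0.38 on the log2 scale (exact two-sided permutation p = 0.267, adjusted p = 0.686).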

How the data were processed

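Small RNA libraries of RB18 and RB20 ESCs in serum, 2i and R2i were analysed (6 libraries, each from a pool of 3 cultures). The authors deposited a table of raw counts of 1907 mature miRNAs and a table of log2 values for 1233 of them, which equal log2(count / size factor + 1) to within 0.005. The submitters' processing notes name FastQC 0.11.5, cutadapt 1.3, Bowtie 1.1.2, featureCounts 1.5 and the build mm10, and the alignment settings are not given in the sources used here.

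Counts were tested with edgeR 4.0.16 in R 4.3.3 (quasi-likelihood test on all 6 libraries, TMM scaling, 1 coefficient for each medium). The low-count filter (filterByExpr, min.count 10, min.total.count 15) left 571 miRNAs and the common biological coefficient of variation was 24.6%. The limits for a call were 0.01 for the p adjusted by Benjamini-Hochberg over all 571, and 2-fold. The SE of a fold change was obtained from it and the F statistic. With 2 libraries in each medium the smallest two-sided permutation p is 0.333, so p-values rest on the spread shared between miRNAs, and measure only the spread between these pooled libraries. In simulated counts with 200 of 570 tested miRNAs changed 4-fold, the test recovered 98.5% for 2i and 97% for R2i against serum, with 1 false call each. The changed miRNAs were drawn from the better counted ones, all miRNAs had the same spread, and no difference between the lines was planted. Recovery of changes near the 2-fold limit was not simulated, so these percentages do not apply to changes of that size. The interaction of line and state was fitted with 2i and R2i as ground state. Its SE and p-values therefore rest on the difference between these media within a line, and not on replicate libraries.

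Ratios were log2 of counts plus 0.5 within a library, tested with exact two-sided permutation over libraries. The lines pair the libraries, since the same 2 lines were grown in every medium. The correlation of the RB20 minus RB18 differences was 0.21 between serum and 2i, 0.24 between 2i and R2i, and -0.13 between serum and R2i.

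The text names the 10 members, the shared miRNAs of the cluster, the seed paralogs, members of the paralogous clusters by count and range, and the 5 miRNAs most like the summed members. Marker lists and members were chosen with earlier results of these data known. Sequences are from RefSeq for GRCm38.p6. Other settings tried were no filter, other limits, the cell line as block, scaling by library totals, DESeq2 1.42.0, limma 3.58.1 fitted to the log2 table, leaving out the 5 most abundant miRNAs, and leaving out each library. Ratios were computed with scipy 1.17.1, numpy 2.4.6 and pandas 2.3.3 in Python 3.11.15, and plots drawn with matplotlib 3.10.9. Counts are reads and not molecules, so binomial intervals cover counting error only.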

Additional observations from a re-analysis of the deposited data

Results flagged for a closer look

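For mmu-miR-18a-5p, both ground-state media lay above serum in RB18 (0.34 in 2i and 0.52 in R2i, log2) and below it in RB20 (-0.29 and -0.46), and the difference between the lines in one fit was -0.81 (SE 0.43, edgeR adjusted p = 0.790). For mmu-miR-17-3p, the lines moved the other way round, with -0.26 and -0.07 in RB18 and 0.10 and 0.18 in RB20, a difference of 0.30 (SE 0.47, edgeR adjusted p = 0.933). Neither difference passed its test, in which the spread was that between 2i and R2i within a line.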

How the results depend on the processing

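Under the alternatives that refit all libraries, 169 of the members' fold changes over the 3 contrasts kept their direction and side of the limit, 10 changed sign and 1 newly passed it. With no filter on low counts, 1 member was called in 2i against serum, mmu-miR-19a-3p at -1.04 (edgeR adjusted p = 0.00450). With an adjusted p under 0.05 at any fold, or an unadjusted p under 0.05, it was 2 members. In that fit 57.6% of all miRNAs had an unadjusted p under 0.05. For R2i against 2i, the members with an unadjusted p under 0.05 rose from 0 to 2 with DESeq2, library totals or no filter, and to 1 with limma, with the 5 most abundant miRNAs left out, or with the cell line as a replicate block. The main fit passed 18.2% of all miRNAs at that limit. Shares of all miRNAs were not counted under the other settings, including those without 1 library, so these member counts lack a background. The paired fit with this replicate block changed no call, and gave -1.17 for mmu-miR-19a-3p and -0.73 for mmu-miR-92a-1-5p in 2i. Values that changed sign were all small. mmu-miR-18a-5p in 2i against serum became 0.038 with DESeq2, 0.037 with library totals, 0.054 with no filter, 0.03 with limma and 0.024 without the 5 most abundant. mmu-miR-20a-5p in R2i against serum became 0.015, 0.044 and 0.016 with DESeq2, library totals and without the 5 most abundant, and with no filter R2i against 2i became -0.010 for mmu-miR-18a-5p and -0.014 for mmu-miR-20a-3p. The cause was not tested.

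Leaving out 1 library at a time, no member was called in any contrast, and the members with an unadjusted p under 0.05 ranged from 0 to 2 in 2i against serum (0 without 2i RB18, 1 without serum RB20 or 2i RB20), from 0 to 1 in R2i against serum (1 without R2i RB20) and from 0 to 1 in R2i against 2i. Fold changes that changed sign ranged, in 2i against serum, from -0.23 to 0.13 for mmu-miR-17-3p, -0.14 to 0.23 for mmu-miR-18a-5p, -0.17 to 0.056 for mmu-miR-18a-3p and -0.37 to 0.054 for mmu-miR-19a-5p. In R2i against serum they ranged from -0.12 to 0.18 for mmu-miR-17-5p, -0.086 to 0.26 for mmu-miR-17-3p, -0.21 to 0.27 for mmu-miR-18a-5p, -0.25 to 0.049 for mmu-miR-19a-5p, -0.19 to 0.036 for mmu-miR-20a-5p, -0.076 to 0.58 for mmu-miR-20a-3p and -0.097 to 1.01 for mmu-miR-19b-1-5p. In R2i against 2i they ranged from -0.25 to 0.22 for mmu-miR-18a-5p, -0.16 to 0.26 for mmu-miR-19a-5p and -0.38 to 0.26 for mmu-miR-20a-3p. Among the ratios, ground state minus serum ranged from -0.31 to 0.18 for the miR-17 arms, from -0.11 to 3.853e-05 for mmu-miR-19a-3p to mmu-miR-19b-3p and from -0.13 to 0.16 for the members to miR-106a-363.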

Other observations

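Of 543 tested miRNAs outside the 3 clusters, those whose log2 CPM followed the summed CPM of the members most closely over the 6 libraries were mmu-miR-5099 (Pearson r = 0.97), mmu-miR-9-5p (0.95), mmu-miR-6399 (0.95), mmu-miR-30e-3p (0.94) and mmu-miR-195a-3p (0.93). These are the highest of 543 coefficients over 6 points that share library and depth, and are given as a description. The level of mmu-miR-6399 was low, with log2 CPM (prior count 2) from 0.88 in 2i RB18 to 3.05 in serum RB20. Its coefficient thus rests on few reads. mmu-miR-9-5p, known from neural cells, had between 148 and 522 counts per library, and mmu-miR-124-3p, the other neural marker, between 364 and 1202, and their part in the likeness was not tested.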
